A study of Mus musculus with 13 samples.

Results

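The mitochondrial ribosome is the ribosome inside the organelle, and it makes only the few proteins that mitochondrial DNA encodes, all of them parts of the respiratory chain and the ATP synthase. Its RNA is made in the organelle, but its proteins are encoded in the nucleus, made in the cytosol and imported. By textbook knowledge its large subunit (Mrpl genes) joins amino acids and holds the exit tunnel, its small subunit (Mrps genes) reads the messenger RNA, and many of its proteins have no relative in bacteria. Described here are the 76 genes whose symbol starts with Mrpl or Mrps followed by a number, of 19505 gene symbols measured, each by the array row of highest mean. Of these, 50 encode large-subunit proteins, 2 of them under older Mrps names (Mrps30 and Mrps18a), and 25 encode small-subunit proteins. Mrps36 is now counted as a part of the 2-oxoglutarate dehydrogenase complex, and it was kept because the rule is by symbol.

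The RNA came from whole bone marrow of C57Bl/6J mice that had received 7 Gy and a transplant of LSK cells, a marrow fraction rich in stem and progenitor cells, taken from Cas9 knock-in mice and transduced with guide RNAs 24 h before. Every group therefore carried Cas9, a guide, the irradiation and the transplant, and the marrow also holds what host cells survived. The groups were sgLuc, a control guide against luciferase (4 arrays), BRSST+sgLuc, the guide combination that the submitters call BRSST together with the control guide (5 arrays), and BRSST+sgEzh2, the same combination with a guide against Ezh2 (4 arrays). BRSST is not spelled out in the labels. Marrow was taken at signs of leukemia or after 6 months, and the sources used here do not give which applied to which array. Nothing in the labels says that arrays came from separate mice, so the spread behind the p-values is one between samples and may be technical.

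Values are log2 signals, so 1 unit is a doubling, and signals of different genes are not compared because each rests on its own probes. A difference is a limma log2 difference ± its standard error (SE), and a gene is said to have risen or fallen where its limma p, adjusted over the 10601 genes tested, was under 0.05. Tested were genes above their array's median on at least 4 arrays. That took in 75 of the 76, and Mrpl43, a large-subunit protein, lay below the array medians at 6.40 to 6.91. In whole marrow, fewer cells of a type and less RNA per cell cannot be told apart. The running numbers in the labels' description field were continuous over both BRSST groups and separate for the sgLuc arrays, so if the numbers mark batches, these cannot be told apart from the control group. Uty and Kdm5d, on the Y chromosome, were high on all sgLuc arrays but on 2 of 4 BRSST+sgEzh2 and 2 of 5 BRSST+sgLuc arrays. The guide's target Ezh2 read 8.08, 9.0, 8.81 and 9.22 with BRSST+sgEzh2, 9.86, 10.08, 10.46, 9.56 and 9.15 with BRSST+sgLuc, and 10.42, 10.48, 9.94 and 10.55 with sgLuc. It was thus below all sgLuc arrays with BRSST+sgEzh2 (-1.57 ± 0.28, limma adjusted p = 0.00306) but overlapped BRSST+sgLuc (-1.05 ± 0.26, limma adjusted p = 0.0808).

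Mitochondrial ribosomal protein genes have compact promoters, and several are known from the literature as targets of NRF1, of GABPA (an ETS family factor) and of YY1. RefSeq (GRCm38.p6) gave windows from 250 bases before to 50 bases after the start for 67 of the 76 genes, 73 windows in all. The NRF1 word of 10 letters (capitals in the Mrpl32 stretch below), the ETS word CCGGAAGT, the YY1 word of 11 letters and the E-box CACGTG were searched on both strands, and none of them contains another. The ETS word stood in 16.4% of the 73 windows, against 7.93% of the windows of genes tested and 3.89% of all RefSeq windows. For the YY1 word the shares were 6.85%, 1.51% and 0.633%, and for the NRF1 word 4.11%, 2.00% and 0.971%. The E-box stood in 9.59% of the windows, 9.89% of those of genes tested and 7.15% of all. Overlapping windows of Mrpl2 hold the same E-box. By gene it stood in 5 of 67, against 1011 of 8675 genes tested with a window. Of 73 stretches of 150 bases that end just before the start, 28 overlapped no annotated gene, and 5 of these held a word. The 4 that belong to genes that rose in BRSST+sgLuc marrow follow, each with the matched word in capitals. They were picked for holding a word and are not typical of the 73. The fifth, of Mrpl39 with the NRF1 word, is not shown, and Mrpl39 did not rise there (0.09 ± 0.10, limma adjusted p = 0.577). A match is a description of letters, not of a bound factor.

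Mrpl20, chr4:155802728-155802877, plus strand, E-box: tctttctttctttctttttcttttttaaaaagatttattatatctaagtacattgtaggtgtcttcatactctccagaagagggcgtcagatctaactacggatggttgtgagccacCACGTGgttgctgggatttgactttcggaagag
Mrpl3, chr9:105053118-105053267, plus strand, ETS: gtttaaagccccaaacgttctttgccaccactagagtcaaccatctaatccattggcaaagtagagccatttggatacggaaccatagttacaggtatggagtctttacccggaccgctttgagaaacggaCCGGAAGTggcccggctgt
Mrps22, chr9:98601680-98601829, minus strand, ETS: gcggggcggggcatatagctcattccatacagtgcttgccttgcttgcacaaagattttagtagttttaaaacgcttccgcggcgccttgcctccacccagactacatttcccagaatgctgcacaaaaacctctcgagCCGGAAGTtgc
Mrpl32, chr13:14613038-14613187, minus strand, NRF1: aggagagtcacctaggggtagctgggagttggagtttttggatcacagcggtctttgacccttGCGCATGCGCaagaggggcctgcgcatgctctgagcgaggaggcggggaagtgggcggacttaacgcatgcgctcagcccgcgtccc

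The words began 33 bases before the start in Mrpl20, 19 in Mrpl3, 11 in Mrps22 and 87 in Mrpl32. They did not set the genes that rose apart from the others for the ETS word, which stood in the windows of 6 of 35 genes that rose and 6 of the 32 others. The E-box stood in 4 of 35 and 1 of 32, the YY1 word in 3 and 2, and the NRF1 word in 2 and 1.

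The first comparison, BRSST+sgLuc against sgLuc, shows what marrow with the BRSST guides had beyond marrow with the control guide. Both subunits stood higher: 40 of 75 genes rose and 0 fell, while 10.8% of all genes tested rose and 11.7% fell (22.5% either way). The 75 genes had a median difference of 0.43, against 0.01 for all genes tested, and 68 of the 75 were higher, against 51.1% of all genes. They ran from -0.47 ± 0.16 for Mrpl49 to 0.97 ± 0.13 for Mrpl35. Of the 75, 23 had every BRSST+sgLuc array above every sgLuc array, against 9.09% of all genes tested, and 0 lay wholly below, against 9.82%.

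**Figure D1:**
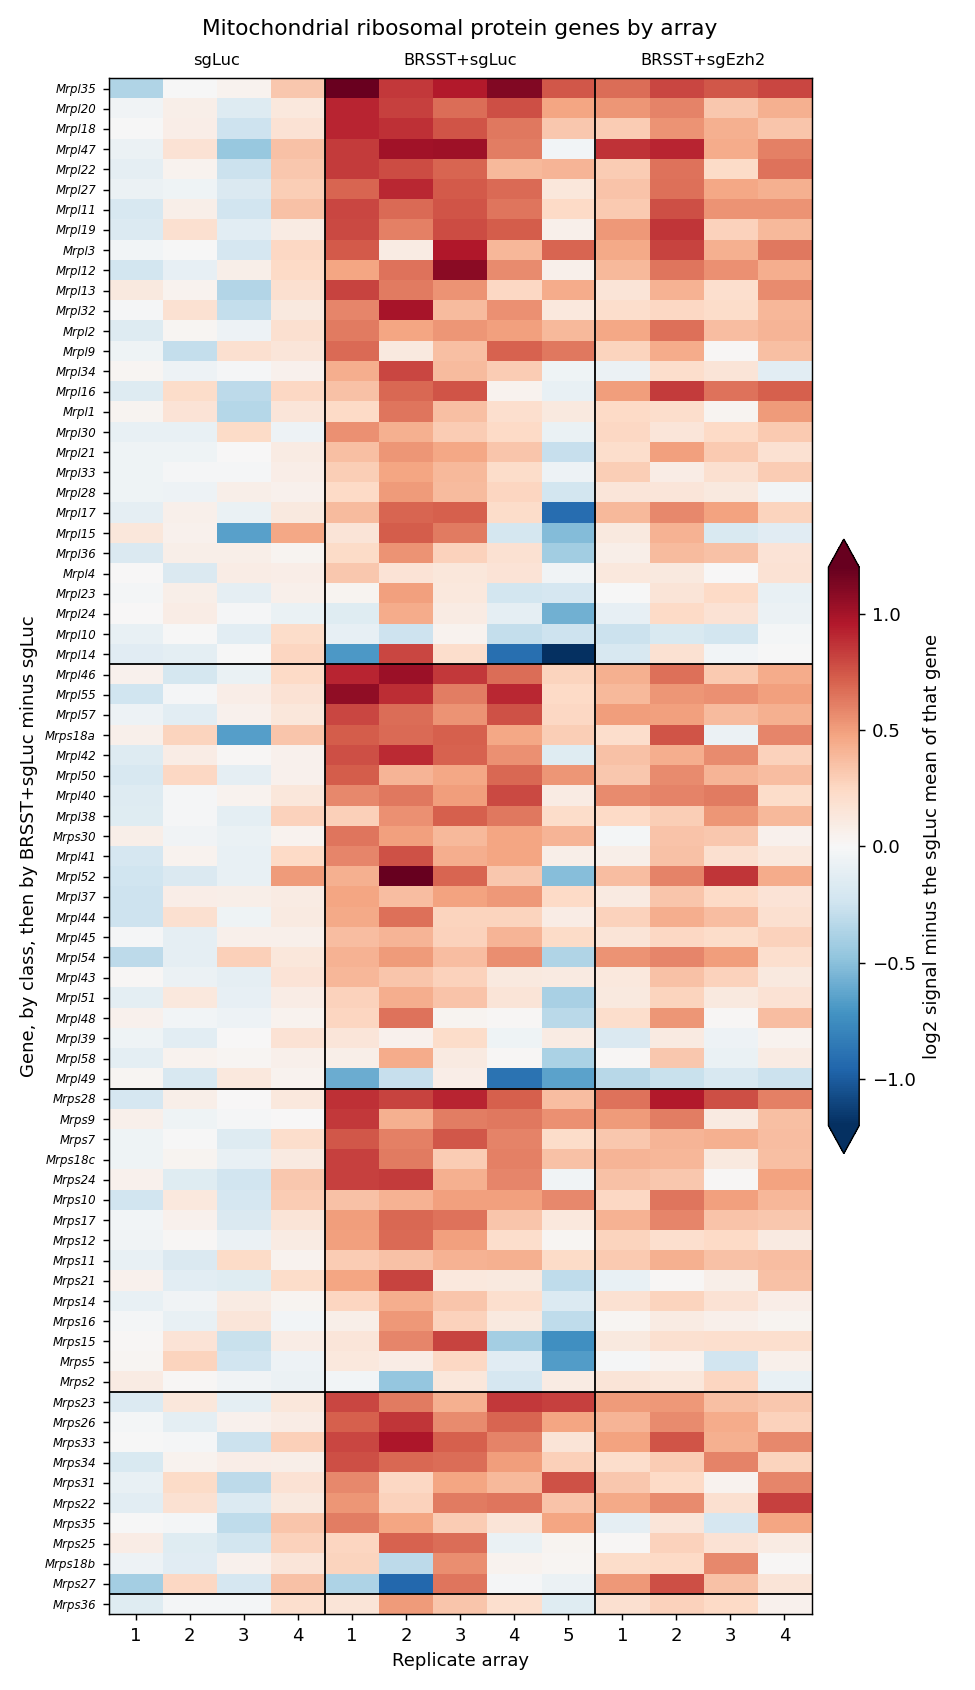
Log2 signal of all 76 genes (rows, by class and then by the BRSST+sgLuc difference) on 13 arrays (columns), minus that gene's sgLuc mean; blocks from the top are large-subunit genes with a bacterial relative, large-subunit mitochondria-specific, small-subunit with a bacterial relative, small-subunit mitochondria-specific, and Mrps36. Red is higher and blue lower, with colours ending at 1.2 log2 units either way. BRSST+sgLuc replicates 1 to 4 and all BRSST+sgEzh2 arrays are mostly red, and replicate 5 of BRSST+sgLuc is mixed.

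Mrpl35, a large-subunit protein with a bacterial relative, rose most. It read 9.21, 8.87, 8.98, 9.14 and 8.77 on the BRSST+sgLuc arrays and 7.66, 8.02, 8.07 and 8.35 on the sgLuc arrays. The groups did not overlap, and the difference was 0.97 ± 0.13, or 1.96-fold (limma adjusted p = 0.000368). Mrpl20, which binds large-subunit RNA early in assembly in its bacterial form, read 11.49, 11.40, 11.25, 11.35 and 11.05 against 10.54, 10.65, 10.42 and 10.70. It too was apart from the control on every array, by 0.72 ± 0.11 or 1.65-fold (limma adjusted p = 0.000662). Its promoter is the one shown above with the E-box.

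Mrpl46, of the central protuberance at the top of the large subunit, read 10.34, 10.45, 10.27, 10.10 and 9.69 against 9.48, 9.21, 9.35 and 9.66. Replicate 5 cleared the highest control by little, and the difference was 0.75 ± 0.15 (limma adjusted p = 0.00382). Mrpl55, a large-subunit protein without a bacterial relative, read 10.82, 10.64, 10.37, 10.66 and 9.99 against 9.52, 9.74, 9.83 and 9.93. Again only replicate 5 came near the control range, and the difference was 0.74 ± 0.15 (limma adjusted p = 0.00391). Mrps28, of the small subunit, read 8.99, 8.92, 9.03, 8.83 and 8.48 against 7.91, 8.18, 8.12 and 8.24. All 5 arrays were above the control, by 0.74 ± 0.13 or 1.67-fold (limma adjusted p = 0.00144).

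The rise was spread over the classes. Of the large-subunit genes 25 of 49 rose, and of the small-subunit genes 15 of 25. By origin, 14 of 29 large-subunit genes with a bacterial relative rose (median 0.37) and 11 of 20 mitochondria-specific ones (median 0.45). In the small subunit these were 9 of 15 (median 0.37) and 6 of 10 (median 0.49). Mrps18a and Mrps18b, though relatives of a bacterial protein, were counted as mitochondria-specific in all counts by class and in the figures. Differences between classes were not tested.

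By place in the ribosome, the proteins around the peptidyl transferase centre, where peptide bonds form, had 3 of 5 genes risen (Mrpl2, Mrpl3 and Mrpl27), with a median of 0.50. Mrpl3 read 9.87, 9.23, 10.10, 9.53 and 9.83 with BRSST+sgLuc and 9.10, 9.13, 8.93 and 9.38 with sgLuc. Its replicate 2 lay inside the control range, and the difference was 0.58 ± 0.16 (limma adjusted p = 0.0206), a call lost in 6 of 26 alternative settings. Those included leaving out BRSST+sgLuc replicate 1 (adjusted p = 0.0525 by limma) or sgLuc replicate 1 (0.0583), 2 (0.0509) or 3 (0.062). Mrpl16, which helps seat transfer RNA, read 9.14, 9.48, 9.54, 8.83 and 8.70 against 8.63, 9.01, 8.47 and 9.04. Here 2 of 5 arrays lay inside the control range, and the gene did not pass (0.35 ± 0.18, limma adjusted p = 0.193).

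At the stalk, which recruits the elongation factors, Mrpl11 and Mrpl12 rose, and Mrpl10 stood at -0.17 ± 0.11. Mrpl12, a stalk protein also known to bind mitochondrial RNA polymerase, read 8.69, 8.87, 9.30, 8.78 and 8.28 against 8.0, 8.12, 8.29 and 8.46. All but replicate 5 were above the control range, and the difference was 0.57 ± 0.17 (limma adjusted p = 0.0265), a call lost in 6 of 25 alternative settings. It was lost without sgLuc replicate 1 (limma adjusted p = 0.0913), sgLuc replicate 2 (0.0735) or BRSST+sgLuc replicate 4 (0.051). Around the tunnel exit 3 of 8 rose (Mrpl22, Mrpl45 and Mrpl47), with a median of 0.28. Mrpl45, which ties the ribosome to the inner membrane, read 9.69, 9.73, 9.59, 9.73 and 9.55 against 9.30, 9.21, 9.38 and 9.38. It had a small difference with little spread, 0.34 ± 0.09 or 1.27-fold (limma adjusted p = 0.0127), and no overlap. In the central protuberance 3 of 5 rose (Mrpl38, Mrpl40 and Mrpl46), and Mrpl58, a peptidyl-tRNA hydrolase built into the ribosome, stood at 0.05 ± 0.14.

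In the small subunit, Mrps12 of the decoding centre read 10.73, 10.92, 10.73, 10.45 and 10.26 against 10.20, 10.25, 10.17 and 10.34. Replicate 5 lay inside the control range, and the difference was 0.37 ± 0.12 (limma adjusted p = 0.044), a call lost in 14 of 26 alternative settings. Mrps18b, 1 of 3 relatives of the same bacterial protein, read 8.56, 7.98, 8.85, 8.33 and 8.31 against 8.23, 8.15, 8.34 and 8.44. Its groups overlapped (0.11 ± 0.16, limma adjusted p = 0.672), whereas its relative Mrps18c rose by 0.54 ± 0.12 (limma adjusted p = 0.00583). Mrps18a, the relative now placed in the large subunit, did not pass (0.58 ± 0.21, limma adjusted p = 0.0612).

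The genes below 0 were Mrpl49, Mrpl14, Mrpl10, Mrps27, Mrps2, Mrps5 and Mrpl24, and the limma fit called none of them. Mrpl49 read 9.80, 10.12, 10.48, 9.51 and 9.76 against 10.42, 10.21, 10.53 and 10.44, with only replicate 3 inside the control range (-0.47 ± 0.16, limma adjusted p = 0.0513). Mrpl49 did fall in the fits without BRSST+sgLuc replicate 2 or 3, with a filter at the 75th percentile, with a trended and robust variance, with array quality weights, with the Y-linked class as a block and on its high arrays alone. Mrpl14 read 8.32, 9.81, 9.22, 8.10 and 7.29 against 8.87, 8.89, 9.0 and 9.26. It had the widest spread of all in BRSST+sgLuc marrow, an SD of 0.99, with arrays on both sides of the control range, and it fell with array quality weights and on the high Y-linked arrays alone.

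**Figure D2:**
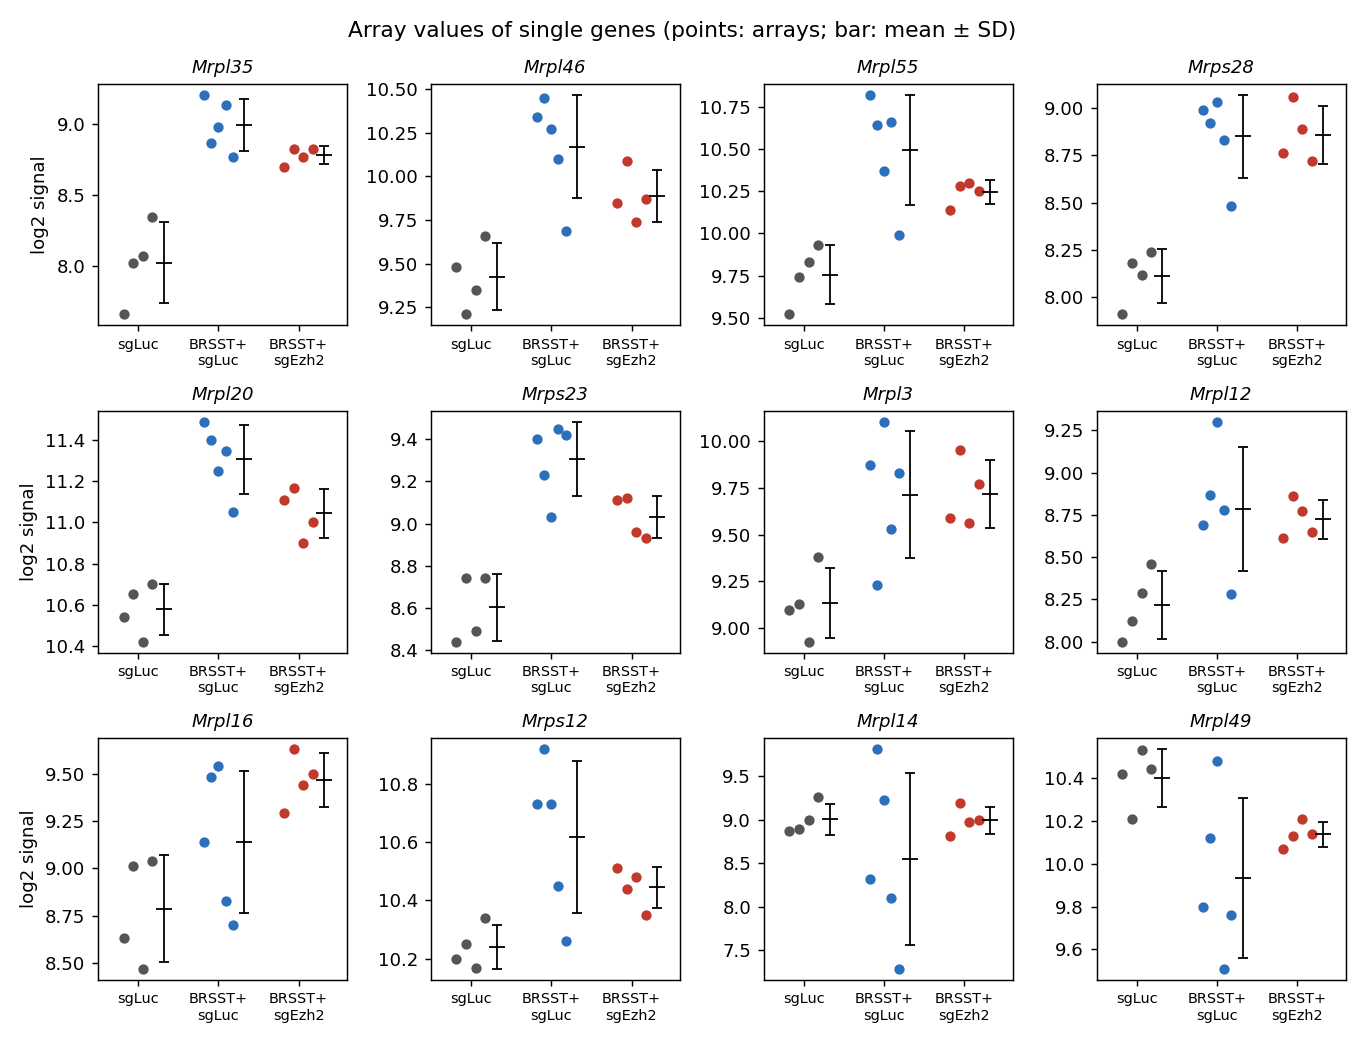
Log2 signal (vertical axes, which differ) of 12 genes on each sgLuc, BRSST+sgLuc and BRSST+sgEzh2 array; points are arrays and the bar is the mean ± SD of the group. Mrpl35, Mrps28 and Mrpl20 lie above every sgLuc array in both BRSST groups, while Mrpl14 scatters from 7.29 to 9.81 in BRSST+sgLuc.

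One BRSST+sgLuc array stood lower than the others of its group in many of these genes. The mean over the 76 genes was 9.65, 9.72, 9.68, 9.52 and 9.23 on the BRSST+sgLuc arrays, 9.11, 9.20, 9.10 and 9.35 on the sgLuc arrays and 9.44, 9.60, 9.46 and 9.48 on the BRSST+sgEzh2 arrays. Replicate 5 of BRSST+sgLuc was thus below the highest control, and the other 8 arrays with BRSST guides were above all controls. On replicate 5, 26 genes were above the sgLuc range and 20 below it. On replicates 1 to 4, 54 to 69 genes were above and 0 to 7 below. The share of all tested genes above the sgLuc range was 29.2% to 39.7% over the 9 arrays, and 34.6% on replicate 5. Replicate 5 was the lowest of its group for 55 of the 76 genes, against 26.2% of all genes tested.

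Members did not stand alike on replicate 5. Mrps23 and Mrps31 read 9.42 and 9.62 there, above their control ranges, while Mrpl17 and Mrps15 read 9.17 and 6.99, below theirs. The 20 genes below the control range include Mrpl14, Mrpl17, Mrpl21, Mrpl28, Mrpl33, Mrpl51, Mrpl52, Mrps5, Mrps15 and Mrps16. In replicates 1 to 4, 52 of the 76 genes lay above every sgLuc array on all 4 arrays, against 13.5% of all genes tested, and 23 of these 52 also did on replicate 5. Without replicate 5, 52 genes rose. Without sgLuc replicate 1, 22 did. In all 13 fits with 1 array removed, 21 genes kept their call: Mrpl2, Mrpl11, Mrpl18, Mrpl20, Mrpl22, Mrpl27, Mrpl35, Mrpl45, Mrpl46, Mrpl50, Mrpl55, Mrpl57, Mrps7, Mrps9, Mrps18c, Mrps23, Mrps26, Mrps28, Mrps30, Mrps33 and Mrps34.

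The second comparison, BRSST+sgEzh2 against sgLuc, asks the same of marrow that also carried the Ezh2 guide. Fewer genes passed, in the same direction: 16 of 75 rose and 0 fell, while 5.51% of all genes tested rose and 3.86% fell (9.37% either way). The median was 0.32, against 0.02 for all genes tested, and 70 of 75 were higher, against 53.7% of all. They ran from -0.27 ± 0.17 for Mrpl49 to 0.76 ± 0.14 for Mrpl35. Without overlap above sgLuc were 36 genes, against 14.2% of all genes tested. The median SD of the 76 genes was 0.16 over the sgLuc arrays (all genes tested, 0.15), 0.25 over the BRSST+sgLuc arrays (0.25) and 0.14 over the BRSST+sgEzh2 arrays (0.19). Both comparisons use the same 4 sgLuc arrays, so their likeness is no independent support for either.

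Mrpl35 read 8.70, 8.83, 8.77 and 8.83 on the BRSST+sgEzh2 arrays, all above the sgLuc arrays given above (0.76 ± 0.14, 1.69-fold, limma adjusted p = 0.00442). Mrps28 read 8.76, 9.06, 8.89 and 8.72, also above all controls (0.75 ± 0.13, 1.68-fold, limma adjusted p = 0.00337). These 2 were the only genes called in all 13 fits with 1 array removed. Mrpl16, which had not passed in the first comparison, read 9.29, 9.63, 9.44 and 9.50, above the control range of 8.47 to 9.04 (0.68 ± 0.19, limma adjusted p = 0.0422). Its call was lost in 11 of 26 alternative settings.

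Mrpl3 read 9.59, 9.95, 9.56 and 9.77 (0.59 ± 0.17, limma adjusted p = 0.0479). Mrps33, a small-subunit protein without a bacterial relative, read 10.44, 10.71, 10.38 and 10.53 with BRSST+sgEzh2, 10.76, 10.93, 10.67, 10.55 and 10.11 with BRSST+sgLuc and 9.95, 9.94, 9.70 and 10.24 with sgLuc. Both were above every control array in BRSST+sgEzh2 marrow, Mrps33 by 0.56 ± 0.17 (limma adjusted p = 0.0478), and both calls were lost in 14 of 26 alternative settings. Mrpl12 read 8.61, 8.86, 8.77 and 8.65, Mrpl45 9.47, 9.57, 9.54 and 9.59, and Mrps12 10.51, 10.44, 10.48 and 10.35. All 3 lay above the control range without passing (limma adjusted p = 0.0915, 0.148 and 0.38). Mrps18b read 8.51, 8.53, 8.87 and 8.30, inside and above it (0.26 ± 0.17, limma adjusted p = 0.385).

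By class, 6 of 29 large-subunit genes with a bacterial relative rose (median 0.30), 3 of 20 mitochondria-specific ones (median 0.34), 3 of 15 small-subunit genes with a bacterial relative (median 0.29) and 4 of 10 mitochondria-specific ones (median 0.39). Around the peptidyl transferase centre Mrpl2, Mrpl3 and Mrpl16 rose, and around the tunnel exit 0 of 8 did. Of the 40 genes called in the first comparison and the 16 called here, 15 were shared, 37.5% of the first list and 93.8% of the second, and Mrpl16 was called only here. The count depended on single arrays. It was 2 without sgLuc replicate 1, 3 without BRSST+sgEzh2 replicate 1 or 2, 5 without sgLuc replicate 2 or 3, 6 without BRSST+sgLuc replicate 1 and also without BRSST+sgEzh2 replicate 3 or 4, 10 without BRSST+sgLuc replicate 4, and 28 without BRSST+sgLuc replicate 5, which enters the shared estimate of the spread.

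**Figure D3:**
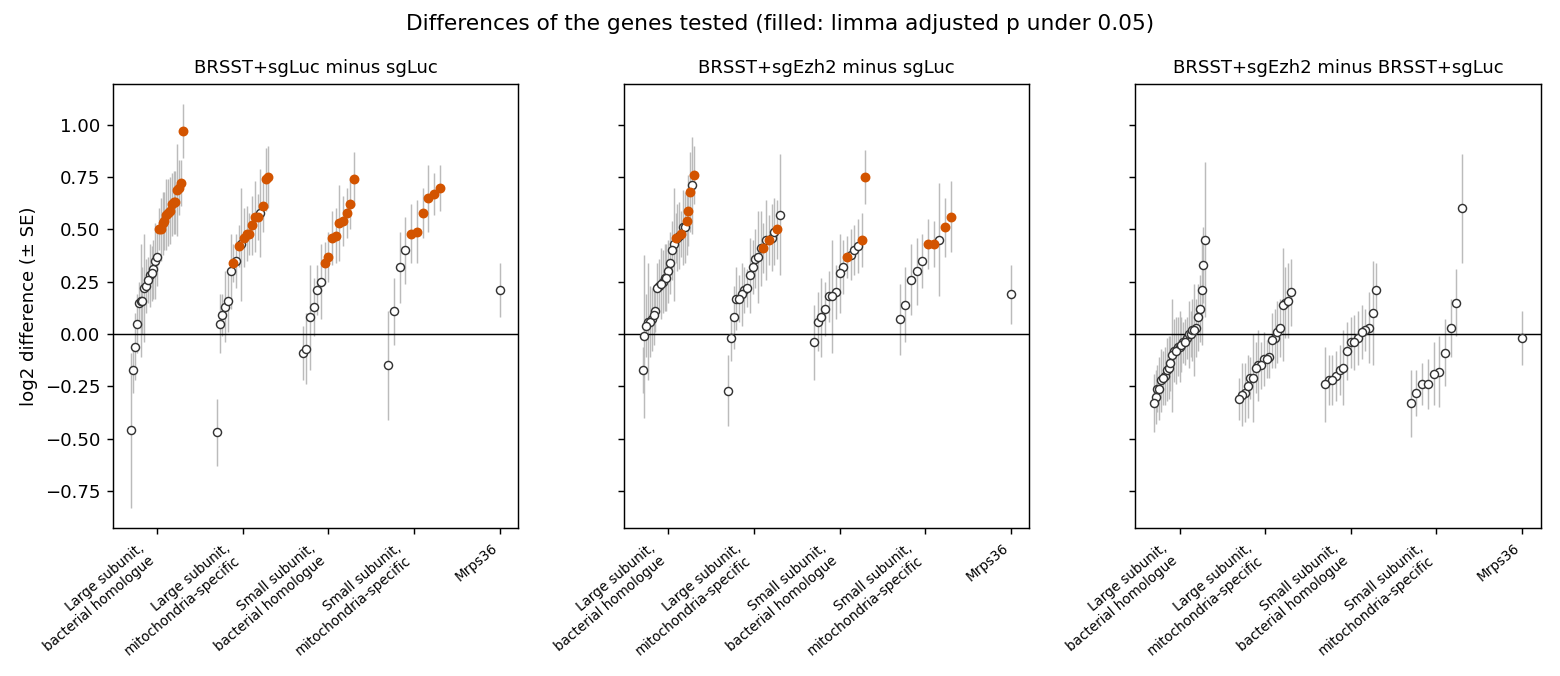
Log2 difference ± SE (vertical axis) of the 75 genes tested, by class (horizontal axis) and ordered by size within a class, for the 3 comparisons; filled points passed limma's adjusted p of 0.05. Filled points number 40 in the left panel, 16 in the middle and 0 in the right, and all of them lie above 0.

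The third comparison, BRSST+sgEzh2 against BRSST+sgLuc, has the BRSST guides on both sides and puts the Ezh2 guide in place of the control guide. No mitochondrial ribosomal protein gene passed in either direction in the limma fit, where 0.783% of all genes tested did (0.67% higher and 0.113% lower). Before adjustment, 1 gene was higher and 6 were lower at p under 0.05, against 9.67% and 4.22% of all genes tested. The median was -0.08, against 0.01 for all genes tested, and 23 of 75 were higher and 52 lower, against 52.6% of all genes higher. With array quality weights in limma, 3 fell (Mrpl18, Mrpl20 and Mrps30), and on the 8 arrays with high Uty and Kdm5d alone, 1 rose (Mrpl14). A p that misses the threshold does not show that the groups are alike.

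Mrps30, a large-subunit protein despite its name, had the smallest p. It read 8.15, 8.52, 8.50 and 8.23 with BRSST+sgEzh2, 8.82, 8.67, 8.56, 8.65 and 8.58 with BRSST+sgLuc and 8.25, 8.13, 8.10 and 8.22 with sgLuc. The first 2 groups did not overlap, the 1 such gene of 75 on the lower side against 1.01% of all genes tested (on the higher side 0 of 75 against 2.52%), and the difference was -0.31 ± 0.10 (limma adjusted p = 0.207). Mrps23, of the small subunit, read 9.11, 9.12, 8.96 and 8.93 with BRSST+sgEzh2, 9.40, 9.23, 9.03, 9.45 and 9.42 with BRSST+sgLuc and 8.44, 8.74, 8.49 and 8.74 with sgLuc. Only replicate 3 of BRSST+sgLuc entered the BRSST+sgEzh2 range (-0.28 ± 0.11, limma adjusted p = 0.298). Mrpl20 read 11.11, 11.17, 10.90 and 11.00, where replicate 5 of BRSST+sgLuc, at 11.05, lay inside that range (-0.26 ± 0.11, limma adjusted p = 0.304).

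On the higher side, Mrps27, a small-subunit protein with RNA-binding repeats, had the largest difference. It read 8.38, 8.63, 8.21 and 8.01 with BRSST+sgEzh2, 7.49, 6.92, 8.50, 7.84 and 7.79 with BRSST+sgLuc and 7.45, 8.11, 7.66 and 8.21 with sgLuc. Replicate 3 of BRSST+sgLuc reached the BRSST+sgEzh2 range, and the difference of 0.60 ± 0.26 did not pass (limma adjusted p = 0.32).

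Genes that serve the same ribosome under other names were set beside these. Of 4 further ribosome proteins tested, Dap3, a GTP-binding small-subunit protein, rose by 0.39 ± 0.12 (limma adjusted p = 0.0278) and Gadd45gip1, a large-subunit protein, by 0.48 ± 0.15 (limma adjusted p = 0.0313) in BRSST+sgLuc against sgLuc. Gadd45gip1 read 8.85, 8.95, 8.98, 8.74 and 8.24 against 8.27, 8.21, 8.35 and 8.26, again with replicate 5 alone inside the control range. Ptcd3, which sits where messenger RNA enters, did not pass (-0.63 ± 0.27, limma adjusted p = 0.117). In BRSST+sgEzh2 against sgLuc 0 of these 4 rose or fell. The shares of all genes tested that rose were 10.8% and 5.51% in these 2 comparisons.

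Among 8 translation factors tested, 1 rose and 1 fell in BRSST+sgLuc (median 0.10), shares near those of all genes tested (10.8% risen and 11.7% fallen). Mtrf1, of the release factor family, read 8.44, 8.60, 8.55, 8.05 and 8.29 with BRSST+sgLuc, 7.25, 7.52, 7.35 and 7.64 with sgLuc and 8.48, 8.37, 7.68 and 8.47 with BRSST+sgEzh2. Both BRSST groups were above every control, by 0.95 ± 0.17 (limma adjusted p = 0.00192) and 0.81 ± 0.18 (limma adjusted p = 0.0119). Gfm2, which helps split the ribosome after a protein is finished, read 8.28, 8.69, 8.96, 8.50 and 8.44 with BRSST+sgLuc and 9.35, 9.24, 8.53 and 9.26 with sgLuc. The groups overlapped through sgLuc replicate 3, and Gfm2 fell by 0.52 ± 0.17 on the log2 scale (limma adjusted p = 0.0411).

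The 22 assembly and ribosomal RNA modification genes tested had 6 risen and 1 fallen in BRSST+sgLuc (median 0.09). Over all genes tested, 10.8% rose and 11.7% fell in that comparison. Malsu1, which keeps the unfinished large subunit from joining the small one, read 10.52, 10.41, 9.99, 10.30 and 10.44 with BRSST+sgLuc, 9.52, 9.64, 9.28 and 9.62 with sgLuc and 10.02, 9.99, 9.88 and 10.05 with BRSST+sgEzh2. Both BRSST groups were above all controls, BRSST+sgLuc by 0.82 ± 0.12 (limma adjusted p = 0.000545) and BRSST+sgEzh2 by 0.47 ± 0.13 (limma adjusted p = 0.0326). Mtg1, a GTPase of large-subunit assembly, read 8.15, 8.95, 8.18 and 8.31 with BRSST+sgEzh2, 8.08, 8.20, 8.28, 8.54 and 8.12 with BRSST+sgLuc and 7.42, 7.53, 7.53 and 7.66 with sgLuc. It rose with BRSST+sgEzh2 by 0.86 ± 0.16 (limma adjusted p = 0.00483) and with BRSST+sgLuc by 0.71 ± 0.16 (limma adjusted p = 0.00612), each without overlap.

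Nsun4, a methyltransferase for ribosomal RNA that also acts in joining the subunits, went the other way. It read 8.58, 8.32, 8.70, 8.39 and 8.40 with BRSST+sgLuc, 8.89, 8.82, 8.83 and 9.05 with sgLuc and 8.83, 9.01, 8.95 and 8.95 with BRSST+sgEzh2. It fell by 0.42 ± 0.10 on the log2 scale in BRSST+sgLuc, below every control (limma adjusted p = 0.00977). BRSST+sgEzh2 lay above every BRSST+sgLuc array, with 0.46 ± 0.10 between them (limma adjusted p = 0.0543). In BRSST+sgEzh2 against sgLuc 3 of the 22 rose (Malsu1, Mpv17l2 and Mtg1) and 0 fell, against 5.51% and 3.86% of all genes tested.

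The 17 genes for charging mitochondrial transfer RNA had 2 risen in BRSST+sgLuc (Qrsl1 and Mtfmt, median 0.14) and 2 risen in BRSST+sgEzh2 (Rars2 and Iars2, median 0.26). The first is near the 10.8% of all genes tested that rose in that comparison, and in the second 5.51% of all genes rose. Qrsl1, an amidotransferase subunit, read 9.26, 8.89, 8.49, 8.91 and 8.47 with BRSST+sgLuc and 7.94, 8.19, 7.91 and 8.51 with sgLuc, 2 of 5 arrays inside the control range (0.67 ± 0.17, limma adjusted p = 0.0139). Rars2, the arginine enzyme, read 7.37, 7.64, 7.35 and 7.89 with BRSST+sgEzh2, 7.04, 7.13, 7.22, 6.45 and 6.95 with BRSST+sgLuc and 7.03, 7.10, 6.49 and 6.95 with sgLuc. It was above every other array with BRSST+sgEzh2, against sgLuc by 0.67 ± 0.19 (limma adjusted p = 0.037). Against BRSST+sgLuc it did not pass (0.61 ± 0.18, limma adjusted p = 0.133). Rars2 entered the test only through the 4 BRSST+sgEzh2 arrays and lay below the array median on all others. Its call and its place among the 2 risen genes are therefore tied to that filter and are no support for a difference.

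Of 11 genes for transcription and upkeep of mitochondrial DNA and RNA, 3 rose in BRSST+sgLuc (Tfb2m, Polg2 and Ssbp1) and 0 in BRSST+sgEzh2. For this list and the next, the shares of all genes tested that rose were 10.8% and 5.51%. Tfb2m, a transcription initiation factor, read 8.48, 8.50, 8.76, 8.29 and 8.90 with BRSST+sgLuc and 8.18, 8.02, 7.45 and 8.17 with sgLuc, without overlap (0.63 ± 0.19, limma adjusted p = 0.0319). Of 6 regulators of mitochondrial biogenesis, 2 were higher and 4 lower in BRSST+sgLuc against sgLuc (median -0.03). In BRSST+sgEzh2 against sgLuc, 3 were higher and 3 lower (median -0.01). Only Ppargc1b, a coactivator of nuclear receptors and NRF1, passed. It read 9.11, 8.83, 8.94, 9.15 and 9.11 with BRSST+sgLuc, 8.78, 9.16, 9.03 and 8.77 with BRSST+sgEzh2 and 8.15, 8.24, 8.39 and 8.38 with sgLuc. It was above all controls in both BRSST groups, by 0.74 ± 0.11 (limma adjusted p = 0.000737) and 0.65 ± 0.12 (limma adjusted p = 0.00425). The products of mitochondrial translation, encoded in mitochondrial DNA, were not analysed here.

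Several lists of cell type markers also differed between the groups, in patterns that varied from list to list. For the counts below, 10.8% of all genes tested rose and 11.7% fell in BRSST+sgLuc against sgLuc. In BRSST+sgEzh2 against sgLuc, 5.51% rose and 3.86% fell. The mean over 5 primary granule genes, made by granulocyte progenitors, was 12.64 to 12.97 in BRSST+sgLuc, 12.66 to 12.92 in BRSST+sgEzh2 and 12.34 to 12.49 in sgLuc, and 3 of the 5 rose in BRSST+sgLuc and 2 in BRSST+sgEzh2. Over 9 mature neutrophil genes it was 12.43 to 12.59, 12.52 to 12.76 and 12.80 to 12.97 in the same order, and 4 of 9 fell in BRSST+sgLuc. The 12 erythroid markers had means of 7.69 to 8.57, 6.90 to 7.66 and 6.99 to 7.32, with 4 of 8 tested risen in BRSST+sgLuc and 0 in BRSST+sgEzh2; Klf1, Sptb, Epb42 and Ermap were too low to test. The 11 B lineage markers had means of 6.74 to 8.47, 6.92 to 8.83 and 9.15 to 10.43, with 8 of 9 tested fallen in BRSST+sgLuc, and 6 of 7 T and NK markers fell there too (means 6.02 to 7.86, 5.99 to 8.52 and 8.16 to 8.69). The 11 proliferation genes had means of 10.02 to 10.97, 10.41 to 10.76 and 10.62 to 10.88, and 0 rose and 2 fell in BRSST+sgLuc (Bub1 and Top2a). Of the remaining marker lists, 4 of 8 monocyte and macrophage, 4 of 5 basophil and mast cell and 3 of 4 plasma cell genes tested fell in BRSST+sgLuc, as did 1 of 2 fibroblast and endothelial genes (Col1a2, Cdh5 and Kdr were too low to test), and 0 of 3 megakaryocyte genes rose or fell. In BRSST+sgEzh2 against sgLuc, 3 of 5 basophil and mast cell, 3 of 4 plasma cell, 2 of 9 B lineage and 1 of 9 mature neutrophil genes fell, and of 8 monocyte and macrophage genes F13a1 rose and Cx3cr1 fell. Against BRSST+sgLuc, all 8 monocyte and macrophage genes were higher in BRSST+sgEzh2 (median 0.87). So were all 9 B lineage genes tested (median 0.82) and all 7 T and NK genes tested (median 1.25). All 8 erythroid genes tested were lower (median -0.89). Among the markers tested only Mpeg1 passed, and it rose. The part of these cell types in the differences of the ribosomal protein genes was not tested.

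**Figure D4:**
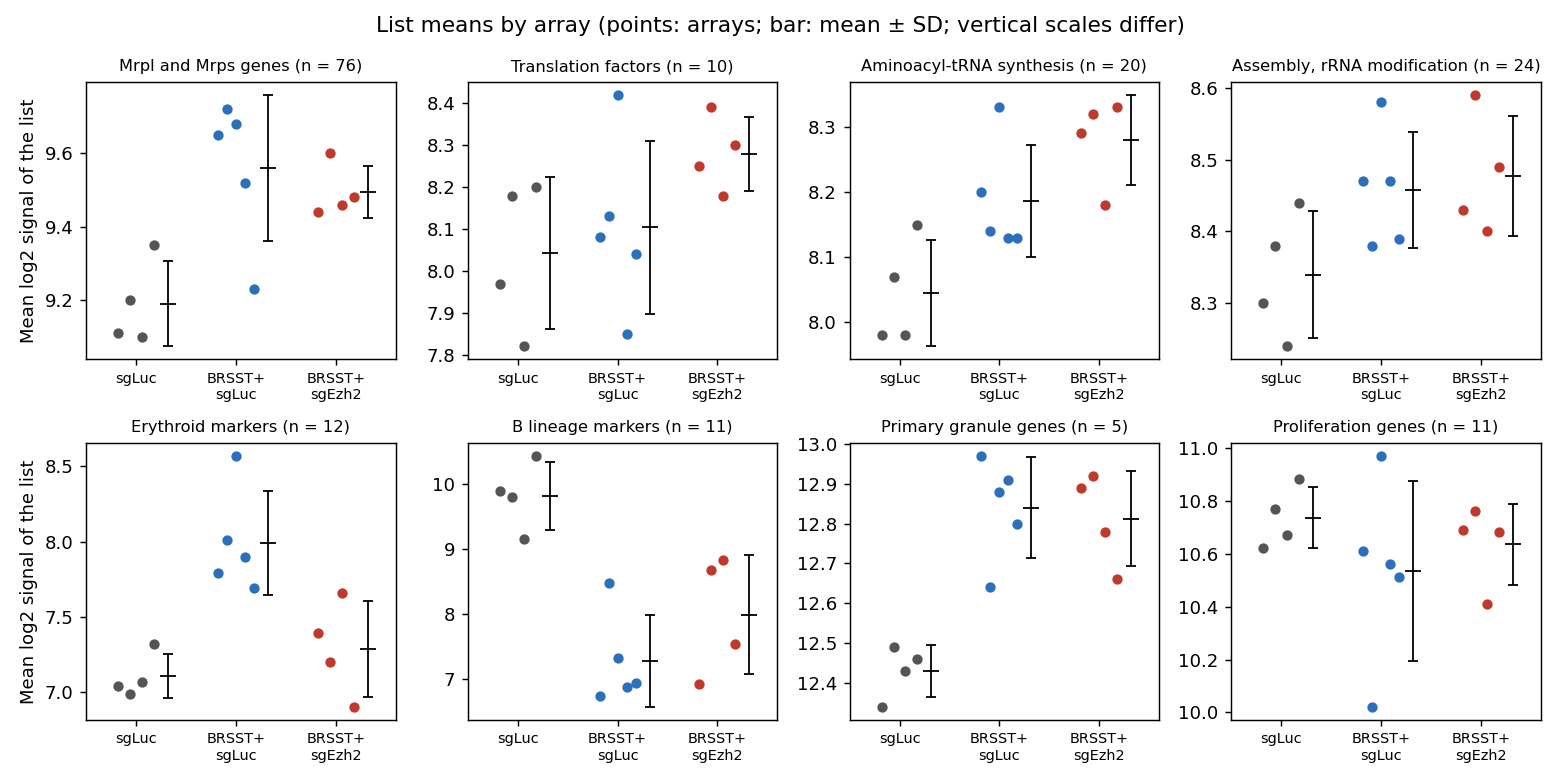
Mean log2 signal of 8 gene lists on each array (vertical axes, which differ), with points for arrays and a bar for the mean ± SD of each group. The ribosomal protein genes and the primary granule genes are higher in both BRSST groups, the B lineage markers are lower in both, and the erythroid markers are higher in BRSST+sgLuc.

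Many of these genes share a start region with a neighbour on the other strand. Of the 67 with a RefSeq window, 26 (38.8%) had another gene starting head to head within 1000 bases, against 18.8% of the genes tested and 12.3% of all genes with a window. Mrpl46 and Mrps11, 1 of each subunit, start 42 bases apart, and the 41 bases between their starts are shown because both genes rose. The letters hold none of the 4 words in full. The YY1 word does stand in the Mrps11 window, further before its start than these letters reach.

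Between Mrpl46 and Mrps11, chr7:78783090-78783130, plus strand: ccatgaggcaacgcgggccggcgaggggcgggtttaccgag

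Mrpl46 rose by 0.75 ± 0.15 in BRSST+sgLuc, as given above, and Mrps11, a protein of the small subunit's platform, read 9.98, 10.02, 10.09, 10.10 and 9.90 against 9.58, 9.50, 9.90 and 9.71. Replicate 5 matched the highest control, and Mrps11 rose by 0.34 ± 0.10 (limma adjusted p = 0.0228). In the other 18 pairs with both genes tested, 12 ribosomal protein genes rose and 4 neighbours did, with 0 neighbours fallen. Over all genes tested, 10.8% rose and 11.7% fell. The medians of the pairs were 0.48 for the ribosomal protein genes and 0.10 for their neighbours. Of the 4, Ndufb5, a complex I subunit, was paired with Mrpl47, and Psma2, a proteasome subunit, with Mrpl32. Pnpla7, a lysophospholipase, was paired with Mrpl41, and Ighmbp2, a helicase, with Mrpl21. Mrpl21 itself did not rise (0.28 ± 0.15, limma adjusted p = 0.199), so both genes rose in 3 of the 18 pairs.

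Ndufb5 and Mrpl47 had the same difference, 0.69 ± 0.10 (limma adjusted p = 0.000591) and 0.69 ± 0.22 (limma adjusted p = 0.035). Mrpl32 rose by 0.53 ± 0.15 (limma adjusted p = 0.0239) and Psma2 by 0.42 ± 0.10 (limma adjusted p = 0.00976); the Mrpl32 stretch with the NRF1 word printed above lies within the 205 bases between their starts. In other pairs the neighbour did not follow: Mrpl27 rose by 0.63 ± 0.15 (limma adjusted p = 0.00851), while Eme1, a nuclease subunit 48 bases away, stood at -0.29 ± 0.14. Mrps12 and Sars2, the mitochondrial serine enzyme, stood at 0.37 ± 0.12 and 0.14 ± 0.11. In BRSST+sgEzh2 against sgLuc, 3 ribosomal protein genes and 2 neighbours (Ighmbp2 and Ndufb5) of the 18 pairs rose, with medians of 0.31 and 0.07. There 5.51% of all genes tested rose.

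**Figure D5:**
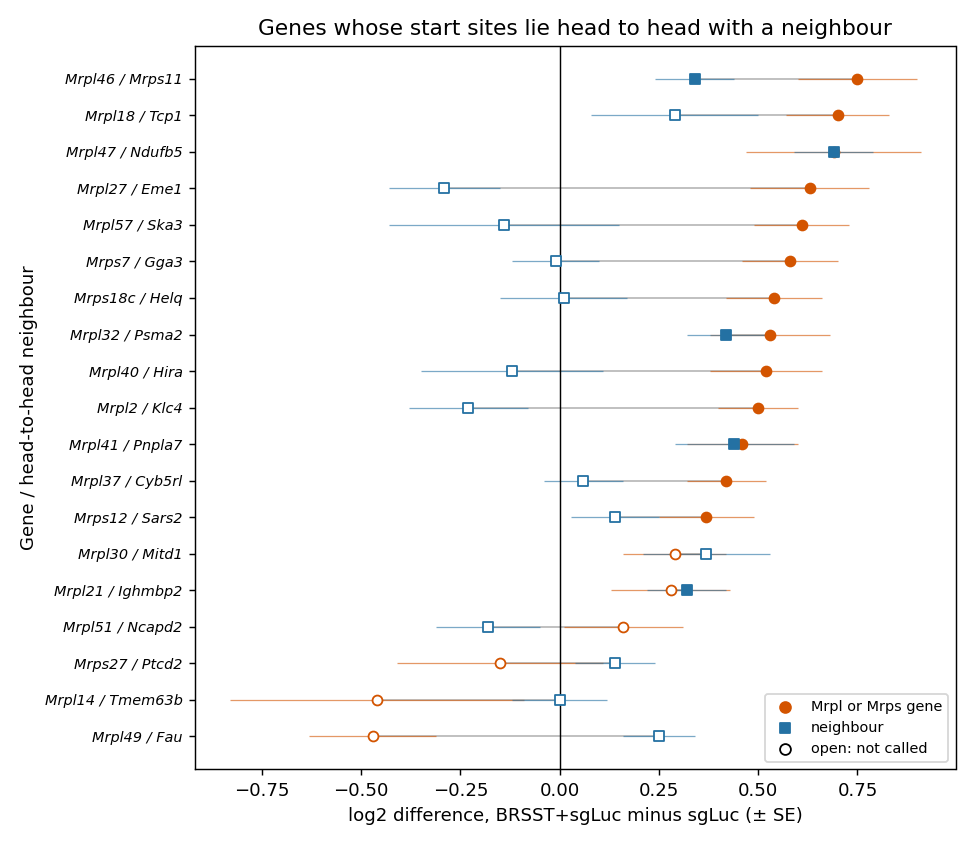
Log2 difference ± SE of BRSST+sgLuc minus sgLuc (horizontal axis) for 19 pairs that start head to head (vertical axis); circles are the first gene named, squares its neighbour, and filled symbols passed limma's adjusted p of 0.05. The circles have a median of 0.50 and the squares 0.14, and in 4 pairs both symbols are filled.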

How the data were processed

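The deposited values are log2 signals. The submitters' processing notes name R 3.5.01 and oligo as the authors' tools; how background was corrected, how arrays were normalized and which oligo version was used: not given in the sources used here. Per the labels' protocols, 2 ng of RNA was amplified with 10 PCR cycles, which can compress differences. The log2 scale was read from the values (3.23 to 13.75, array medians 7.19 to 7.32). Of 22203 rows, 19572 had 1 symbol, 0 several and 2631 none. For 55 of 19505 symbols the row of highest mean was taken. Aurkaip1, Mrpl53 and Mrps6 were not analysed here. The number of arrays limits the precision.

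Groups came from the labels. One limma 3.58.1 fit (lmFit, eBayes; R 4.3.3) over all 13 arrays and 10601 genes gave every difference, SE and adjusted p (Benjamini-Hochberg over the genes tested). The procedure was tested on simulated data. Figures used matplotlib 3.10.9 in Python 3.11.15.

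The genes described and the lists were chosen with earlier results of these data known. Array values are given for the 5 largest rises of a comparison (or the 3 smallest p), for Mrpl3, Mrpl12, Mrpl16, Mrpl45, Mrps12 and Mrps18b, and for the largest called rise and fall of each translation-related list; Mrps27, Mrpl14, Mrpl49, Mrps11 and Gadd45gip1 were added for the ends of ranges or after their values were seen, as were the neighbour pairs with a value. Cell type markers are given as list means. Alternatives were array quality weights, a trended and robust variance, a replicate block, equal array medians, quantile normalization, averaging a symbol's rows, no filter, a filter at the 75th percentile, only the 2 groups compared, a threshold of 0.01, the Y-linked class (Uty and Kdm5d) as a block or its high arrays alone (the latter chosen after seeing the data), no BRSST+sgLuc arrays 2 and 5, and each array left out.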

Additional observations from a re-analysis of the deposited data

Results flagged for a closer look

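Of 231 groups of arrays (76 genes and their mean, each in 3 groups), 10 held an array far from the rest of its group by Dixon's test; chance gives about 1 in 20. In 4 of them BRSST+sgLuc replicate 5 was low: Mrpl11 at 9.36 (next array 9.76), Mrpl19 at 9.67 (10.21), Mrpl21 at 10.11 (10.72) and Mrpl54 at 7.70 (8.43). In sgLuc, replicate 3 was high for Mrpl30 at 8.08 (7.79), and replicate 1 was low for Mrpl36 at 7.60 (7.81) and Mrpl37 at 11.01 (11.33). In BRSST+sgEzh2, Mrpl40 was low on replicate 4 at 10.55 (10.89), Mrps15 on replicate 1 at 7.84 (7.92) and Mrps18c on replicate 3 at 10.89 (11.14). The mean over the 76 genes was not among the 10, so replicate 5 was not flagged by its mean. The test for a far array uses only the values within a group.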

How the results depend on the processing

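Alternatives were run for the counts of genes called and for the log2 differences of 14 ribosomal protein genes, not for the other lists or the neighbours, and none of these differences changed sign in the alternatives run. For BRSST+sgLuc against sgLuc, 40 genes were called; a threshold of 0.01 left 20, and leaving out 1 array gave 22 to 52. For BRSST+sgEzh2 against sgLuc, 16 were called; there were 2 at a threshold of 0.01, 6 with no filter, 9 with equal medians, 27 with only the 2 groups compared, 31 without BRSST+sgLuc arrays 2 and 5, 39 with array quality weights and 2 to 28 with 1 array left out. For BRSST+sgEzh2 against BRSST+sgLuc, 0 were called, 3 with array quality weights and 1 on the arrays of the high Y-linked class alone. The cause was not tested. With the Y-linked class as a block the counts were 33, 14 and 0 in that order. Equal medians moved the share of higher calls over all genes from 48.1% to 55.8% in BRSST+sgLuc against sgLuc. Deviations of same-numbered arrays from their group means had correlations from -0.176 to 0.192, which cannot settle whether the numbers pair arrays. With a replicate block 49, 18 and 0 genes were called.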
